A study of Homo sapiens with 8 samples.

Results

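The apolipoprotein genes are 10 human genes, APOA1, APOA2, APOA4, APOA5, APOB, APOC1, APOC3, APOE, APOH and APOM, taken by gene name from a table of 62703 genes, and all 10 were found. The cells were HepaRG, a human hepatic cell line of terminally differentiated cells that holds hepatocyte-like and other cell states, sequenced with the Parse Evercode split-pool kit, which tags each transcript with a unique molecular identifier (UMI). Cultures were exposed for 24 h to troglitazone at 50 µM by the cell table, cycloheximide at 0.2, 2 or 20 µM, etoposide at 0.25, 2.5 or 25 µM, tunicamycin at 0.001, 0.01 or 0.1 µM, rotenone at 0.2 or 0.4 µM, brefeldin A at 0.001, 0.01 or 0.1 µM or tert-butylhydroquinone (tBHQ) at 3, 30 or 300 µM, or kept in media alone, and the reference cultures received 0.1% DMSO, the vehicle. The GEO labels list troglitazone only at lower doses. All cultures came from 1 cell line and were dissociated with actinomycin D and anisomycin present, so their values hold for cells that had met a transcription inhibitor and a translation inhibitor.

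Each cell carries a sample name, taken here as 1 culture, and the first number of that name, called run here, may be a batch, although no label defines it. Cells with under 500 genes or over 20% mitochondrial UMIs were left out, which kept 8406 of 12976 cells and 38 of 47 cultures with 30 or more of them. Their summed depth ran between 1741603 and 97081214 UMIs per culture, and 822 barcodes recurred in more than 1 of the 8 sublibraries, none with the same sublibrary suffix. DMSO had 4 cultures (runs 3, 4, 5 and 6), troglitazone the same 4 runs, media 3, rotenone 0.4 µM 2 (runs 5 and 6), each dose of cycloheximide, etoposide and tunicamycin 2 (runs 3 and 4), and rotenone 0.2 µM and each dose of brefeldin A and tBHQ 1. The study describes a single replicate per condition for its main experiment, which used another platform (TempO-LINC). Treatment names of the present cells number the cultures as replicates, such as 2 to 5 for the kept DMSO cultures. Whether these are biological or technical is not stated, so the spread between cultures may be technical. Levels are CPM, the UMIs of a gene scaled to the total UMIs of its culture, and in summed cultures fewer cells of a type and less RNA per cell cannot be told apart.

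Apolipoproteins are the proteins of plasma lipoproteins, and the liver makes most of them. One APOB molecule forms the frame of each very low density lipoprotein (VLDL) and low density lipoprotein particle, on which MTTP loads lipid. APOA1 and APOA2 are the main proteins of high density lipoprotein (HDL), and APOM carries sphingosine 1-phosphate on it. APOC3 slows and APOA5 speeds the breakdown of triglyceride by lipoprotein lipase, APOC1 inhibits cholesteryl ester transfer protein, APOA4 belongs mainly to intestinal particles, APOE binds the receptors that clear remnants, and APOH (beta-2-glycoprotein I) binds anionic phospholipid.

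On GRCh38 with GENCODE 44, 4 of the genes lie together on chromosome 11: APOA5 (116789367 to 116792420, minus strand), APOA4 (116820700 to 116823304, minus), APOC3 (116829706 to 116833072, plus) and APOA1 (116835751 to 116837622, minus). APOE (44905791 to 44909393) and APOC1 (44914247 to 44919349) are neighbours on the plus strand of chromosome 19. APOA2 lies on chromosome 1 (161222292 to 161223631, minus), APOB on chromosome 2 (21001429 to 21044073, minus), APOM on chromosome 6 (31652416 to 31658210, plus) and APOH on chromosome 17 (66212033 to 66256525, minus). APOA1 overlaps the antisense gene APOA1-AS (2.12 CPM in DMSO) and APOM overlaps BAG6 (35.1 CPM), and reads of such partners cannot be told apart where strand was not used in counting, which is not given in the sources used here. RefSeq windows of the start site, 250 bases before to 50 after, on GRCh38.p14, were found for 7 of the 10 genes. APOA1, APOB and APOC3 had no window, so the motif counts below say nothing about them. Those of APOA2, a rare member with values of its own under troglitazone and rotenone, and of APOC1, APOE and APOH, which fell at the highest cycloheximide dose, are shown 5′ to 3′ with motif letters in capitals.
APOA2, chr1:161223579-161223878, minus strand: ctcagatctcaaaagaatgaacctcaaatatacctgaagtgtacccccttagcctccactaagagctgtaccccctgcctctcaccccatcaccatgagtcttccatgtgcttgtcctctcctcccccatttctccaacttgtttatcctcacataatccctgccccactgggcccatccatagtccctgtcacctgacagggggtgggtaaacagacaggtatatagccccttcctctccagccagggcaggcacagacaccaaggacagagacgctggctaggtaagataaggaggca
APOC1, chr19:44914422-44914721, plus strand: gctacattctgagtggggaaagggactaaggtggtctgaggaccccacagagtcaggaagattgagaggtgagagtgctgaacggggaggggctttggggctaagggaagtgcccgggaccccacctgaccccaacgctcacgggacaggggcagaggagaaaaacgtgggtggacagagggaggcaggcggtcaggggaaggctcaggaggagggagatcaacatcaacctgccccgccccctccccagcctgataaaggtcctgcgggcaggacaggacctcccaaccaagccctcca
APOE, chr19:44905546-44905845, plus strand: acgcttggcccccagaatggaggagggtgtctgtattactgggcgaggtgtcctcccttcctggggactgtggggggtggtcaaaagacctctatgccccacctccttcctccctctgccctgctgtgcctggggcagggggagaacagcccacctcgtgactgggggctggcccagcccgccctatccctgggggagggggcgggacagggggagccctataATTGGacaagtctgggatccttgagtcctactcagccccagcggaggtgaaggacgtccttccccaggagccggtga
APOH, chr17:66229366-66229665, minus strand: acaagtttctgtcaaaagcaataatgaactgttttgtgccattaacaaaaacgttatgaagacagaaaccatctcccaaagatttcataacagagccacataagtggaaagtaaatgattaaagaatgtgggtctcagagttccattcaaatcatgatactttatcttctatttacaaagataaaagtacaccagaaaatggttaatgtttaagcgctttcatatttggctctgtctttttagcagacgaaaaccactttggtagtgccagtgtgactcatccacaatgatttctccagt
Both strands were searched for 4 sets of letters, and no matches overlap in the windows shown. CAAAGTCCA, known for HNF4, was in 0 of the 10 windows of the 7 genes (APOE and APOA5 have several). It was in 0.384% of 35116 windows of that length. TATAAA, the TATA box, was in 1 of the 10 and in 11.5% of all, and CCAAT, known for NF-Y, in 3 and 34.6%. The nuclear receptor half-site AGGTCA was in 2, both of APOA5, and in 13.8% of all. The capitals in the APOE window are ATTGG, the reverse complement of CCAAT, and the other 3 windows shown hold none of these letters. A match is a description of letters, not a binding site.

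In DMSO cultures, APOB was the most abundant transcript of the 10, 6 genes were plain to measure and 4 were near the limit. Over all kept cells the UMIs numbered 2596980 for APOB, 159042 for APOE, 128250 for APOH, 78605 for APOA1, 31595 for APOC1, 25355 for APOC3, 1138 for APOM, 827 for APOA2 and 331 for APOA5. APOA4 had 1 UMI, in rotenone 0.4 µM run 5, and none in DMSO, where 3 UMIs of the summed cultures would be 0.0554 CPM. Across the cultures APOB made up between 74.5% and 92.4% of the members' UMIs.

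Per kilobase of merged exons, the mean level in DMSO (n = 4 cultures) was 255 CPM for APOB (range 214 to 322), 163 for APOH (96.4 to 277), 154 for APOA1 (79.3 to 280) and 121 for APOE (84.5 to 161). It was 54.6 for APOC3 (22.0 to 83.1), 40.4 for APOC1 (19.4 to 54.4), 1.88 for APOM, 1.07 for APOA2 and 0.359 for APOA5. In this order APOB, APOH and APOA1 overlapped in range, as did APOE with APOH and APOA1, and APOC3 with APOC1. APOC3 also overlapped narrowly with APOA1.

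The 4 DMSO cultures differed among themselves by run. APOA1 was at 86.9, 94.5, 188 and 307 CPM in runs 3, 4, 5 and 6 (mean 169 ± 103, SD, n = 4). APOC3 was at 25.9, 18.7, 70.6 and 70.8 CPM and APOC1 at 39.3, 22.8, 63.9 and 64.1 CPM. APOE was at 182, 194, 347 and 316 CPM, and APOH at 137, 128, 237 and 368 CPM. Runs 3 and 4 were below runs 5 and 6 for each of these genes and for APOB, which was at 3174, 3364, 3800 and 4772 CPM. The share of hepatocyte-like cells moved with them, at 10.8%, 9.45%, 15.1% and 20.4%. The DMSO cultures also differed in median UMIs per kept cell, at 29790, 17080, 79381 and 32905 in runs 3, 4, 5 and 6. Their median mitochondrial share before filtering was 15.2%, 2.47%, 16.1% and 12.6%. The part of each in these differences was not tested. Since treatments of runs 3 and 4 were set against all 4 DMSO cultures, ratios to the DMSO culture of the same run stand beside the fitted values of the main contrasts.

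**Figure D1:**
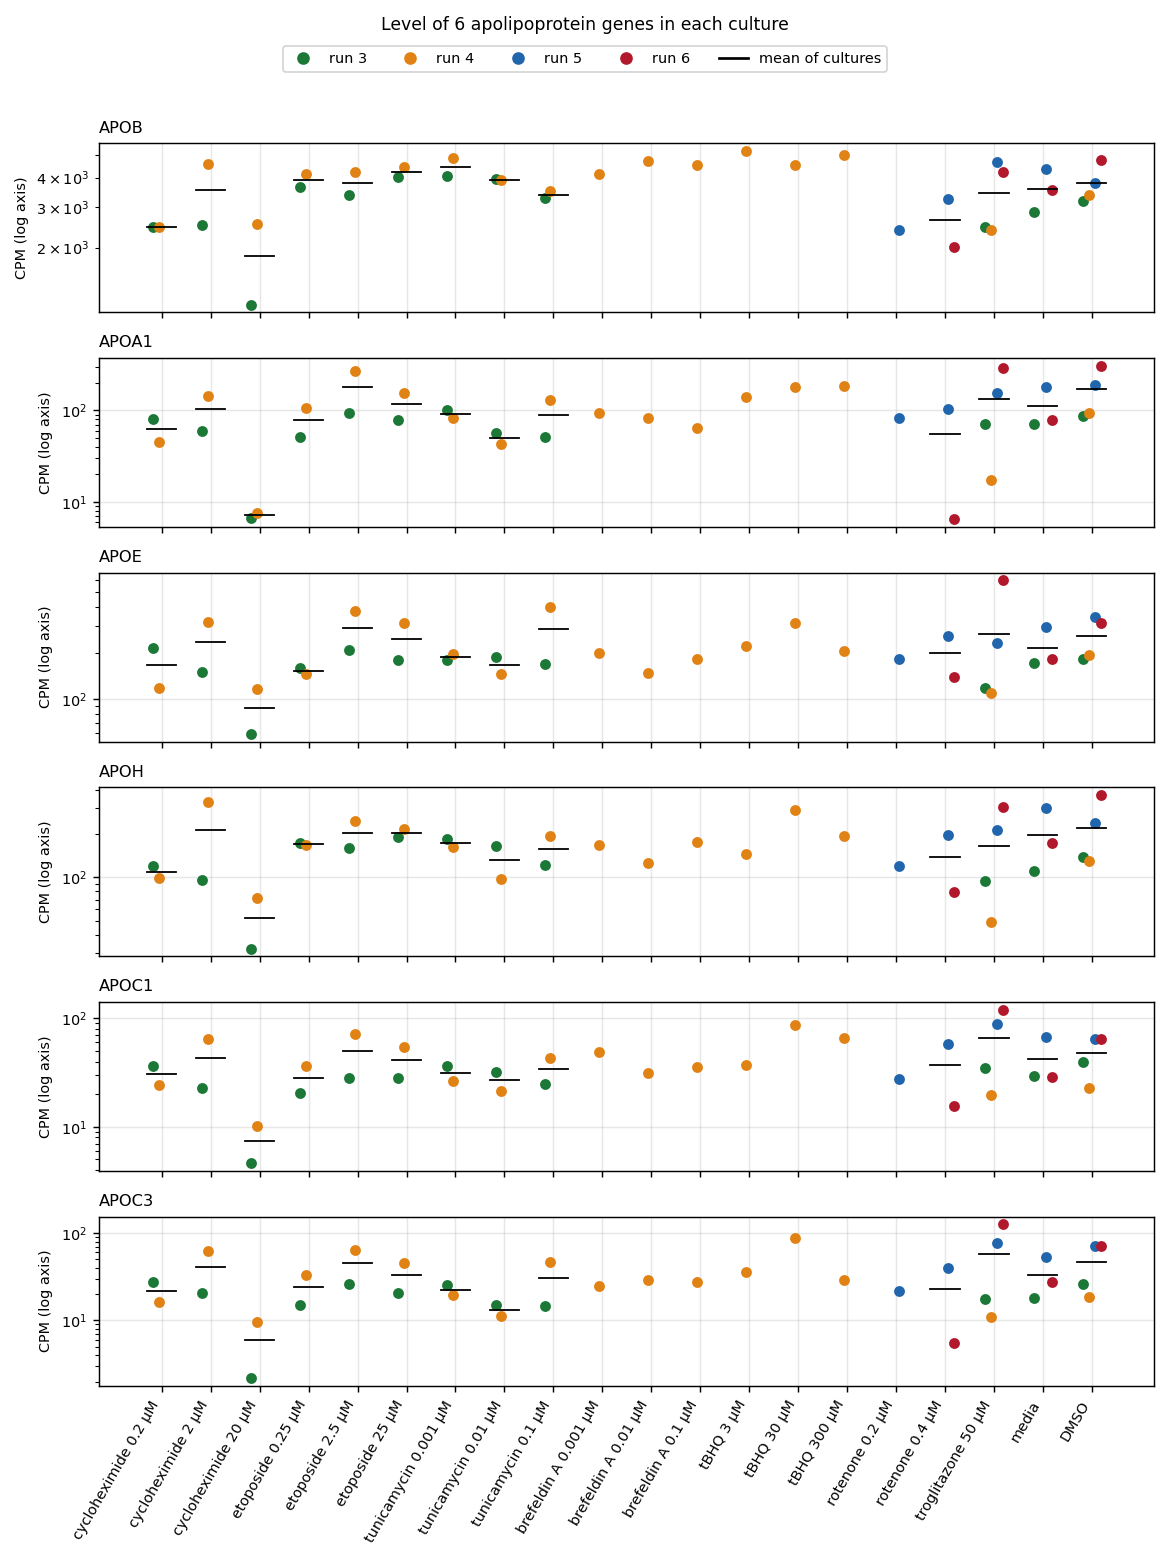
CPM (log axis) of 6 apolipoprotein genes in each kept culture by treatment, coloured by run, with DMSO at the right and a line at the mean of a treatment. Both cycloheximide 20 µM cultures lie below all 4 DMSO cultures in every panel, and rotenone 0.4 µM run 6 has 6.44 CPM of APOA1.

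The genes were then followed across cell clusters in DMSO cells, from clusters built with the 10 genes left out. All 6 abundant genes had their highest level in hepatocyte-like cells, with a steeper gradient for APOA1, APOC1, APOC3 and APOH than for APOB and APOE, and each was also found in other clusters. The hepatocyte-like name rests on the marker list (ALB, TTR, SERPINA1, TF, ARG1 and others) and was given to 2 of 18 clusters, one led by CYP3A4, SLC22A7 and ARG1 (31 DMSO cells) and one by MIR122HG, UGT2B15 and AFM (74 DMSO cells). A cluster led by COL3A1, a fibrillar collagen (97 DMSO cells), was the comparison. Clusters were not replicates, and these values carry no test.

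APOA1 had 1480 CPM in the CYP3A4 cluster, 606 in the MIR122HG cluster and 16.2 in the COL3A1 cluster. APOC3 had 531, 168 and 5.72 CPM in the same clusters, and APOC1 had 363, 161 and 20.1 CPM. The same order held for APOH at 975, 631 and 26.4 CPM, for APOE at 802, 640 and 184 CPM and for APOB at 8709, 6518 and 1131 CPM. Between the highest and the lowest of 13 clusters with at least 20 DMSO cells, the level differed by 109-fold for APOA1, 61.1-fold for APOC1, 11.6-fold for APOB and 9.44-fold for APOE. For APOC3 and APOH the lowest cluster held 2 and 9 UMIs, 3.64 CPM (counting interval 0.441 to 13.2) and 8.50 CPM (3.89 to 16.1), so their folds of 146 and 115 are imprecise. The 105 hepatocyte-like cells held 66.7% of APOA1, 63.6% of APOC3, 51.7% of APOC1, 43.2% of APOH, 29.7% of APOE and 24.8% of APOB UMIs in DMSO, and the 579 cells of all clusters other than these and the COL3A1 cluster held 32.6%, 35.7%, 45.7%, 55.9%, 65.7% and 73.0%. Some of these other clusters were rich in ALB: those led by GRM3, ST18 and SLC30A8 had 11562, 11536 and 12180 CPM. Others were not, such as that led by FABP4 (1261 CPM), and the COL3A1 cluster had 722 CPM. APOA2, the rare HDL protein transcript, was at 15.8 CPM in the CYP3A4 cluster, from 35 UMIs, and at 1.28 in the MIR122HG cluster, and the CYP3A4 cluster held 59.3% of its UMIs in DMSO. That cluster also held 38.1% of APOC3 UMIs and 35.7% of APOA1 UMIs, but 9.58% of APOB and 11.1% of APOE UMIs.

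**Figure D2:**
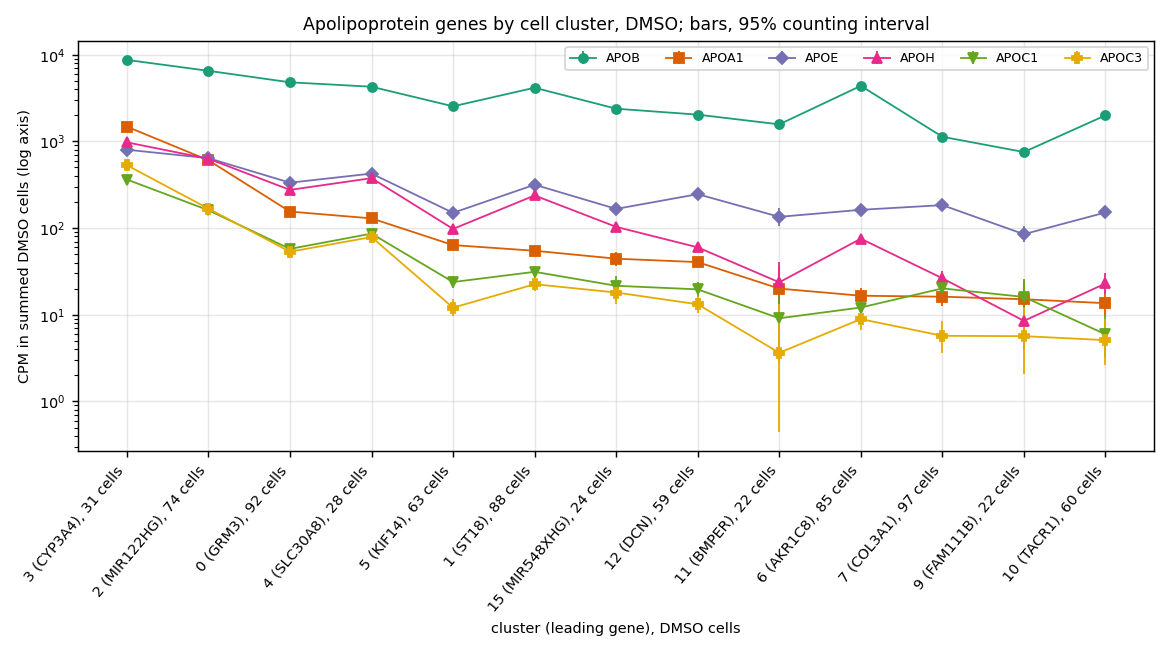
CPM (log axis) of 6 apolipoprotein genes in summed DMSO cells of each cluster, with 95% counting intervals. The CYP3A4 cluster is highest for APOA1 (1480 CPM), and the lines of APOB and APOE are flatter than those of APOA1, APOC3 and APOH.

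Shares of cells with at least 1 UMI were compared after each cell was thinned to 5000 UMIs. APOA1 was detected in 79.0% of 105 hepatocyte-like cells (exact 95% interval 70.0% to 86.4%) and in 8.25% of 97 COL3A1 cluster cells (3.63% to 15.6%), with median depths of 49512 and 19244 UMIs before thinning. APOC3 was in 53.3% of hepatocyte-like cells and 2.06% of COL3A1 cluster cells, and APOH in 87.6% and 9.28%. APOB was in 100% and 89.7% and APOE in 83.8% and 41.2%. In the 579 cells of the remaining clusters APOA1 was detected in 17.4%, APOC3 in 9.67%, APOH in 35.4%, APOE in 48.7% and APOB in 98.8%. RNA free in the suspension can give such UMIs, and its part was not tested. Over all 781 DMSO cells the thinned shares were 24.6% for APOA1, 97.8% for APOB and 52.5% for APOE, against 57.7%, 99.5% and 87.6% unthinned. These intervals cover counting error only.

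A small part of the cells held most of some transcripts. The tenth of DMSO cells with the most thinned UMIs of a gene (78 of 781 cells) held 80.9% of APOC3, 78.5% of APOA1, 70.1% of APOC1, 55.5% of APOH, 45.1% of APOE and 25.9% of APOB UMIs. At this depth a low count by itself ranks cells, so these shares are descriptions.

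Cycloheximide, which stalls ribosomes in elongation, was the treatment under which most of these genes fell. At 20 µM 6 of the 7 members that passed the filter on low counts were lower than in DMSO: APOA1, APOC3, APOC1, APOH, APOE and APOB. APOA1 fell most and APOB least, and APOM did not pass the test. In the edgeR quasi-likelihood test with Benjamini-Hochberg adjustment over all 18706 genes, 13.2% were called lower and 6.52% higher, so the members' share lay above that of the genes at large. All contrasts here share the 4 DMSO cultures.

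APOA1, the main HDL protein, was at 6.71 and 7.49 CPM in the cycloheximide 20 µM cultures of runs 3 and 4, against 86.9, 94.5, 188 and 307 CPM in DMSO. The groups did not overlap, and the fitted change was -4.60 on the log2 scale (SE 0.58, edgeR adjusted p = 0.00029). Within runs it was 12.9-fold lower in run 3 and 12.6-fold lower in run 4. Of the triglyceride regulators, APOC3 was at 2.20 and 9.64 CPM in treated cultures, against 25.9, 18.7, 70.6 and 70.8 CPM in DMSO (log2 -3.39, SE 0.73, adjusted p = 0.0072). APOC1 was at 4.61 and 10.2 CPM in treated cultures, against 39.3, 22.8, 63.9 and 64.1 CPM in DMSO (log2 -2.89, SE 0.49, adjusted p = 0.0020). Both treated cultures lay below every DMSO culture for both genes, run 4 closer to DMSO than run 3, with within-run log2 ratios of -3.55 and -0.96 for APOC3 and -3.09 and -1.17 for APOC1 in runs 3 and 4.

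APOH was at 32.3 and 71.7 CPM in treated cultures, against 137, 128, 237 and 368 CPM in DMSO (log2 -2.12, SE 0.47, adjusted p = 0.0082). APOE, the receptor ligand, was at 59.0 and 116 CPM in treated cultures, against 182, 194, 347 and 316 CPM in DMSO (log2 -1.60, SE 0.35, adjusted p = 0.0079). Again the groups did not overlap and run 3 was the lower of the treated cultures, with within-run log2 ratios of -2.09 and -0.84 for APOH and -1.63 and -0.74 for APOE in runs 3 and 4. APOB was at 1138 and 2533 CPM in treated cultures, against 3174, 3364, 3800 and 4772 CPM in DMSO (log2 -1.04, SE 0.33, adjusted p = 0.046). Within runs its log2 ratios were -1.48 and -0.41. The APOB call was lost with trimmed mean (TMM) scaling (adjusted p = 0.052), and without the treated culture of run 3 (0.35) or the DMSO culture of run 3 (0.065), 5 (0.065) or 6 (0.12). APOM was at 1.70 and 2.68 CPM in treated cultures, within the DMSO range of 1.91 to 2.93 CPM or just below it (log2 -0.19, adjusted p = 0.81), a small difference whose sign turned without the treated culture of run 3 (0.24).

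APOA2 and APOA5 had no UMI in 11849273 UMIs of the 2 treated cultures. With 3 UMIs of that total as the limit, 0.253 CPM, APOA2 was at least 4.30-fold lower than its pooled 1.09 CPM in DMSO and APOA5 at least 3.13-fold lower than its 0.793 CPM. Against the DMSO cultures of runs 3 and 4 alone, with 9 and 6 UMIs, these limits were 2.23- and 1.48-fold, and without the treated culture of run 3 no limit could be given. The treated culture of run 4 had 37 cells, and without the run 3 culture 2 members passed the test, whereas without the run 4 culture 6 did.

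At 0.2 and 2 µM cycloheximide 0 members passed the edgeR test, and 0 passed DESeq2 at either dose, with 2 (APOA1 and APOH) at an unadjusted p under 0.05 at 0.2 µM and 0 at 2 µM. Of all genes, 674 of 18012 had an unadjusted edgeR p under 0.05 at 0.2 µM and 1457 of 19926 at 2 µM. The share of all genes past the adjusted threshold was 0.00502% higher at 2 µM and 0.0% higher at 0.2 µM, and 0.0% were lower at both. By increasing dose APOA1 was at 80.6, 59.8 and 6.71 CPM in run 3, whose DMSO culture had 86.9 CPM. In run 4 it was at 45.4, 145 and 7.49 CPM, where DMSO had 94.5 CPM. The middle dose thus lay below DMSO in one run and above it in the other.

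Hepatocyte markers moved with the apolipoprotein genes at 20 µM. Of 10 markers tested, 9 were lower (median log2 -2.82), their sum was between 2403 and 4983 CPM in treated cultures and between 9459 and 23507 CPM in DMSO, and AHSG had no UMI in treated cultures (mean 8.21 CPM in DMSO). FGB was the marker that did not pass. No treated cell was in the hepatocyte-like clusters (0 of 225 and 0 of 37 cells), against 9.45% to 20.4% of cells in DMSO, and 81.3% of treated cells were in 1 other cluster. That cluster held 2.82% of DMSO cells, and clusters built over all treatments can also separate cells by treatment. The summed cholangiocyte markers were at 28.1 to 55.7 CPM in treated cultures and 112 to 176 CPM in DMSO. Of 6 mesenchymal markers tested, COL3A1 (log2 -3.75) and DCN (-1.83) were lower and PDGFRB (1.57) was higher, and 0 treated cells were in the COL3A1 cluster. The part of these shifts in the fall of the apolipoprotein genes was not tested. In thinned cells, APOA1 was detected in 3.1% of treated cells and 24.6% of DMSO cells, APOE in 24.0% and 52.5%, and APOB in 89.7% and 97.8%.

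Genes of lipoprotein metabolism outside the 10 were also counted at cycloheximide 20 µM, where the median of all genes was -0.12 on the log2 scale. Of 15 tested plasma protein genes of hepatocytes, 10 were lower and 0 higher (median log2 -1.97), among them TF, which carries iron (44.7 ± 4.20 CPM in treated cultures, SD, n = 2, and 773 ± 329 CPM in DMSO, SD, n = 4), and HP, which binds haemoglobin (41.7 and 515 CPM). Of 15 VLDL assembly genes, 5 were lower and 0 higher (median -0.78). MTTP, the lipid transfer protein that APOB needs, averaged 4.97 ± 2.06 CPM in treated cultures (SD, n = 2) and 65.3 ± 11.1 CPM in DMSO (SD, n = 4; log2 -3.90, adjusted p = 4.2e-05), and DGAT2, which makes triglyceride, fell by 2.20 on the log2 scale. P4HB, the partner subunit of MTTP, also fell (91.0 CPM in treated cultures and 253 CPM in DMSO). The 11 other apolipoproteins tested included 3 that were lower and 0 higher (median -0.65): PON1, an HDL esterase (log2 -2.53), SAA4 (-1.73) and CLU (-1.17).

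Of 12 receptor and uptake genes, 4 were lower and 0 higher (median -0.51), with SORL1, a sorting receptor, at log2 -2.13. Of 9 HDL and lipase genes, 5 were lower (LIPG at -2.65, ANGPTL4 at -2.42 and LIPC at -1.38 among them) and 1 was higher: LPL, lipoprotein lipase, averaged 114 CPM in treated cultures and 52.9 CPM in DMSO (log2 1.10, adjusted p = 0.0064). Of 19 regulators, 9 were lower and 0 higher (median -0.81), including CREB3L3, a liver transcription factor of triglyceride metabolism (log2 -3.03), NR1H4, the bile acid receptor (-2.74), and ONECUT1 (-2.07). The members' own median was -2.12 over the 7 tested, close to that of the plasma protein genes. No list was compared with another by a test.

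**Figure D3:**
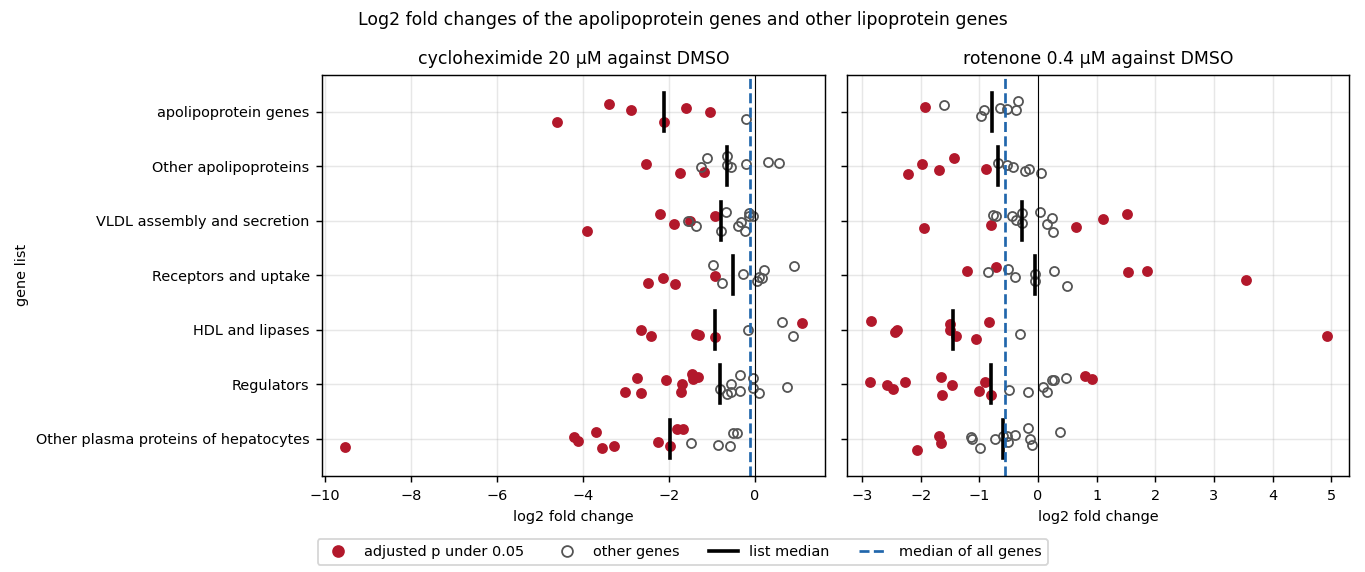
Fitted log2 fold changes (treated over DMSO) of the apolipoprotein genes and 6 lists of related genes at cycloheximide 20 µM and rotenone 0.4 µM, filled where the adjusted p was under 0.05. At cycloheximide 20 µM the medians are -2.12 for the apolipoprotein genes and -1.97 for other plasma proteins, and at rotenone 0.4 µM -0.79 and -0.60.

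Rotenone, an inhibitor of mitochondrial complex I, was followed by calls in a large part of the transcriptome at 0.4 µM. Of 8 members tested, 1 was lower, APOA2, while 42.2% of 19831 genes were called lower and 19.1% higher. Against the DMSO cultures of runs 5 and 6 alone, 3 members passed, where 7477 of 21622 genes were called lower and 3420 higher. The 2 treated cultures differed strongly from each other. The median of all genes lay at -0.56 on the log2 scale (-0.10 with TMM scaling), and the median of the 8 members at -0.79.

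APOA2 was at 0.299 and 0.140 CPM in rotenone 0.4 µM cultures of runs 5 and 6, against 0.637, 0.293, 1.23 and 1.87 CPM in DMSO (log2 -1.93, SE 0.62, edgeR adjusted p = 0.016). The treated culture of run 5 was level with the DMSO culture of run 4, so the groups overlapped, and the call was lost with TMM scaling (0.057), in DESeq2 (0.14) and without either treated culture (0.11 and 0.066). APOA1 was at 103 and 6.44 CPM in treated cultures, against 86.9 to 307 CPM in DMSO (log2 -1.60, adjusted p = 0.090). Only run 6 lay below the DMSO range, and within runs the log2 ratios were -0.87 in run 5 and -5.58 in run 6.

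APOC3 was at 40.3 and 5.46 CPM in treated cultures (DMSO 18.7 to 70.8, log2 -0.98, adjusted p = 0.21). APOH was at 197 and 78.8 CPM in treated cultures (DMSO 128 to 368, log2 -0.65, adjusted p = 0.21), and APOB at 3245 and 2010 CPM (DMSO 3174 to 4772, log2 -0.52, adjusted p = 0.16). For all 3 genes run 5 lay inside the DMSO range and run 6 below it. APOC1 was at 58.5 and 15.7 CPM in treated cultures (log2 -0.34, adjusted p = 0.54) and APOE at 261 and 139 CPM (log2 -0.38, adjusted p = 0.32), and both signs turned with TMM scaling (0.10 for APOC1 and 0.069 for APOE). APOM was at 1.37 and 0.84 CPM in treated cultures, both below the lowest DMSO value of 1.91 CPM (log2 -0.93, adjusted p = 0.059). Each treated culture was lower than the DMSO culture of its own run for these 8 genes, by log2 ratios of -0.13 to -2.04 in run 5 and -1.19 to -5.58 in run 6.

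No rotenone-treated cell was in the hepatocyte-like clusters at either dose, and 95.6% of rotenone 0.4 µM cells were in 1 cluster. Clusters were built over all treatments, and that cluster held 0 DMSO cells and had 11054 CPM of ALB. The cluster with 97.6% of rotenone 0.2 µM cells held 0 DMSO cells as well. Absence from the hepatocyte-like clusters thus cannot be read as a loss of such cells. Of 10 hepatocyte markers at 0.4 µM, 5 were lower and 0 higher (median log2 -1.39), including ARG1 (-3.01), CYP3A5 (-2.95) and ASGR1 (-1.92). That share is near the 42.2% of all genes called lower and is no result about these markers. ALB was at 11458 and 5378 CPM in treated runs 5 and 6, and at 8107 and 16059 CPM in DMSO of those runs. Of 6 mesenchymal markers tested 5 were lower and 0 higher, including COL3A1 (-3.01), PDGFRB (-2.36) and DCN (-1.31). The hepatocyte marker sum, most of it ALB, lay between 7695 and 15515 CPM at 0.4 µM and between 9459 and 23507 CPM in DMSO. Long genes were lower than short ones: the median log2 change was -1.10 for genes spanning at least 100 kb, -0.20 for 10 to 100 kb and 0.13 for shorter genes, and of the 10 members only APOB and APOH span over 10 kb. Whether these shifts bear on the members' values was not tested.

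At 0.2 µM there was 1 rotenone culture and so no test. APOA1 was at 82.7 CPM, APOC1 at 27.4 CPM and APOC3 at 21.6 CPM, 3 members at least 2-fold lower than pooled DMSO, beside 16.4% of the 5515 genes above the level minimum. The log2 ratios were -1.03 for APOA1 (95% counting interval -1.08 to -0.99), -1.02 for APOC1 (-1.10 to -0.95) and -1.40 for APOC3 (-1.48 to -1.32). APOA1 lay below all DMSO cultures, whereas APOC1, APOC3 and APOE (184 CPM) lay within their range. APOB at 2382 CPM and APOH at 119 CPM were below the lowest DMSO culture as well, by log2 ratios of -0.64 and -0.87 to pooled DMSO. So were APOM, APOA2 and APOA5 at 0.711, 0.268 and 0.134 CPM, from 69, 26 and 13 UMIs, which were too rare for a call. Against the DMSO culture of the same run the level was 2.27-fold lower for APOA1, 2.34-fold for APOC1 and 3.27-fold for APOC3. By increasing dose in run 5, APOA1 had 82.7 and 103 CPM, with 188 CPM in DMSO.

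Of the other lipoprotein genes at rotenone 0.4 µM, the HDL and lipase list had the lowest median, -1.46, with 8 of 10 lower and 1 higher, beside 42.2% of all genes lower and 19.1% higher. LIPC, hepatic lipase, averaged 2.18 ± 2.09 CPM in treated cultures (SD, n = 2) and 18.5 ± 2.46 CPM in DMSO (SD, n = 4; log2 -2.85, edgeR adjusted p = 0.00018), with LMF1, a lipase maturation factor, at log2 -2.45 and ANGPTL4, a lipase inhibitor, at -2.41. Of 19 regulators 10 were lower and 2 higher (median -0.80), with NR5A2 (-2.87), NR1H4 (-2.57) and ONECUT1 (-2.47) lower and NR2F2 (0.92) and FOXO1 (0.80) higher. Other apolipoproteins had 5 of 11 lower and 0 higher (median -0.68), including SAA4 (-2.22), PON3 (-1.98) and PON1 (-1.43), and plasma proteins 3 of 15 lower and 0 higher (median -0.60), including F2, prothrombin (-1.69), and ITIH1 (-1.66).

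The VLDL assembly list had 3 of 15 higher and 2 lower, and the receptor list 3 of 12 higher and 2 lower. The shares called higher in both lists, and those called lower among the regulators and other apolipoproteins, were near the shares of all genes and are no result about the lists. DGAT2 averaged 57.3 CPM in treated cultures and 20.0 CPM in DMSO (log2 1.52), MIA3 and SURF4, which help secretory cargo leave the endoplasmic reticulum, had log2 values of 1.11 and 0.64, and MIA2 had -0.81. MYLIP, a ubiquitin ligase of lipoprotein uptake, averaged 510 CPM in treated cultures and 43.8 CPM in DMSO (log2 3.54, adjusted p = 1.8e-06), CD36 and SCARB1 had log2 values of 1.87 and 1.53, and LRP8 had -1.21. With TMM scaling both lists had 5 higher and 1 lower.

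Troglitazone, a PPAR-gamma agonist, left 0 of 8 tested members past the threshold when run was left out of the fit. In that fit 1 member, APOA2, had an unadjusted edgeR p under 0.05, beside 453 of all 17954 genes. Of 17954 genes 0.078% were called higher and 0.0% lower. With run as a block, edgeR called 25 of these genes higher, APOA2 among them, and 0 lower. APOA2 was at 3.00, 2.11, 4.35 and 10.7 CPM in troglitazone cultures of runs 3, 4, 5 and 6, from 11, 14, 132 and 94 UMIs, against 0.637, 0.293, 1.23 and 1.87 CPM in DMSO. Every troglitazone culture was above every DMSO culture. Without run in the fit its log2 change was 2.30 (SE 0.55), with an unadjusted p of 0.0012 and an edgeR adjusted p of 0.42. DESeq2 gave an adjusted p of 0.037 and edgeR without a filter on low counts 0.024. Within runs the log2 ratios were 2.23, 2.85, 1.82 and 2.52.

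In the hepatocyte-like clusters, APOA2 was at 24.9 CPM in 108 troglitazone cells (199 UMIs, counting interval 21.6 to 28.7) and at 5.94 CPM in 105 DMSO cells (41 UMIs, 4.26 to 8.06), while APOA1 was at 728 CPM in the troglitazone cells and 887 CPM in the DMSO cells. The other HDL protein transcript thus had no such ratio in the same cells, although the difference between the 2 genes was not tested. Over whole cultures APOA1 was at 70.3, 17.3, 157 and 288 CPM in troglitazone runs 3, 4, 5 and 6, each below its own run's DMSO value of 86.9, 94.5, 188 and 307 CPM. APOE was at 119, 110, 235 and 599 CPM in troglitazone and 182, 194, 347 and 316 CPM in DMSO, below its own run in 3 of 4. The hepatocyte marker sum was between 5675 and 21782 CPM in troglitazone cultures and between 9459 and 23507 CPM in DMSO. Of the other lipoprotein genes tested, 1 passed the test: CD36, a fatty acid and lipoprotein scavenger receptor named here after its values were seen, averaged 26.9 CPM in troglitazone cultures and 4.18 CPM in DMSO (log2 2.73, edgeR adjusted p = 0.00024).

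**Figure D4:**
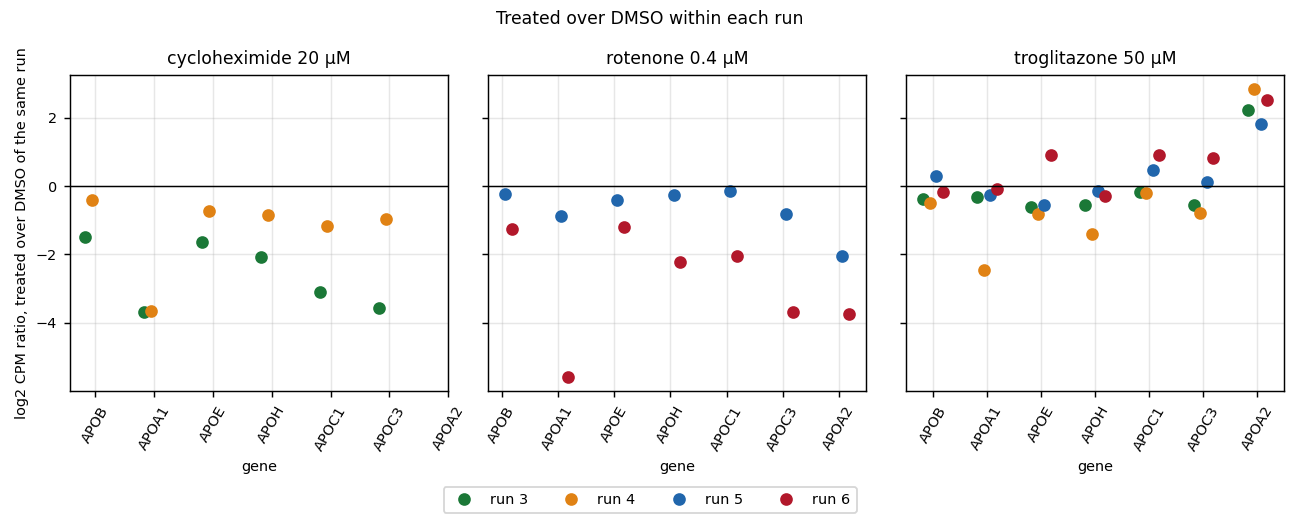
Log2 ratio of CPM, treated over the DMSO culture of the same run, for each member at cycloheximide 20 µM, rotenone 0.4 µM and troglitazone 50 µM, coloured by run. APOA2 is between 1.82 and 2.85 in the 4 troglitazone runs, and APOA1 is at -5.58 in rotenone run 6.

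Media alone, etoposide (a topoisomerase II poison) and tunicamycin (a blocker of N-glycosylation) gave 0 members past the edgeR test at any dose, and DESeq2 gave 0 as well. At an unadjusted p under 0.05 there were 0 members in media, 1 at etoposide 0.25 µM (APOE), 0 at 2.5 and 25 µM, 1 at tunicamycin 0.001 µM (APOA5), 4 at 0.01 µM (APOA1, APOC1, APOC3 and APOE) and 0 at 0.1 µM. Of all genes, 546 of 21184 had an unadjusted edgeR p under 0.05 at etoposide 0.25 µM. At tunicamycin 0.001 and 0.01 µM these were 381 of 22539 and 571 of 19586 genes. The share of all genes past the adjusted threshold was 0.0% in each direction of these contrasts except for 0.00538% higher at tunicamycin 0.1 µM. At tunicamycin 0.01 µM APOA1 was at 56.8 and 42.8 CPM in treated cultures of runs 3 and 4, below the 86.9 and 94.5 CPM of the DMSO cultures of the same runs. At etoposide 2.5 µM it was at 93.3 and 268 CPM, above them. The fitted log2 values of the members ran between -1.82 and 0.46 over these 7 contrasts.

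**Figure D5:**
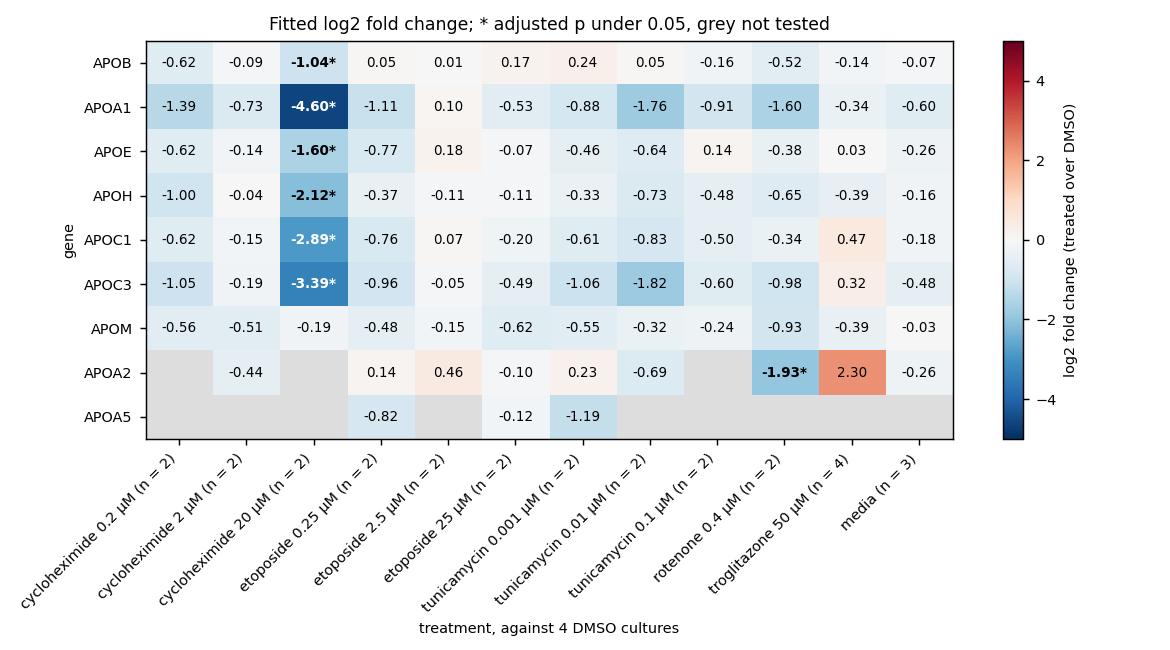
Fitted log2 fold changes (treated over 4 DMSO cultures) of the members in the 12 contrasts with at least 2 treated cultures, with asterisks where the edgeR adjusted p was under 0.05 and grey where a gene did not pass the filter on low counts. Asterisks stand at cycloheximide 20 µM for 6 genes and at rotenone 0.4 µM for APOA2.

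Brefeldin A, which blocks transport out of the endoplasmic reticulum, and tBHQ, an NRF2 activator, had 1 culture per dose, all in run 4. At 0.001, 0.01 and 0.1 µM brefeldin A, APOA1 was at 92.5, 82.0 and 64.2 CPM, against 94.5 CPM in the DMSO culture of run 4. APOC3 was at 25.0, 29.0 and 27.6 CPM, against 18.7 CPM. Set against pooled DMSO, APOC3 was at least 2-fold lower at 0.001 µM, APOA1 at 0.01 µM and both at 0.1 µM, beside 1.51%, 0.378% and 0.181% lower (0.0668%, 0.511% and 0.0907% higher) of the 4492, 4497 and 4409 genes above the level minimum. Against the run 4 DMSO culture alone 0 members above that minimum were 2-fold apart. APOC1 at 0.001 µM, just under the 50 CPM needed, was at 49.2 CPM, against 22.8 CPM in the run 4 DMSO culture. The rare APOA2 was at 2.31 CPM at 0.1 µM (37 UMIs), against 0.293 CPM there (1 UMI). APOB was at 4139, 4713 and 4542 CPM at the 3 doses and 3364 CPM in that DMSO culture. At 3, 30 and 300 µM tBHQ, APOA1 was at 140, 182 and 184 CPM, APOB at 5203, 4524 and 4987 CPM and APOC3 at 35.6, 88.7 and 28.7 CPM. No member above that minimum was 2-fold from pooled DMSO at any tBHQ dose. Of all genes above it, 0.314%, 0.424% and 0.633% were lower and 0.269%, 0.246% and 0.226% higher. Among rarer members, APOA2 at 3 µM was at 2.43 CPM (23 UMIs), against a pooled 1.09 CPM in DMSO. Against the run 4 DMSO culture alone, 3 members above the minimum were at least 2-fold higher at 30 µM. They were APOC1 by 3.80-fold (22.8 CPM in that DMSO culture), APOC3 by 4.73-fold and APOH by 2.25-fold, and APOC1 was 2.89-fold higher at 300 µM.

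Over the cultures other than cycloheximide 20 µM and rotenone (n = 33), the members rose and fell together to different degrees in log2 CPM. Among 21 pairs of the 6 abundant members and ALB, APOC1 with APOC3 had the highest Pearson r, 0.922 (Spearman rho 0.877, permutation p = 1e-05 for each, the smallest that 100000 permutations give, adjusted 1.4e-05), and r was 0.895 without the 2 most distant cultures, 0.575 within run 3 (n = 11) and 0.896 within run 4 (n = 16). APOA1 with APOC3 had r = 0.896 and rho 0.896 (permutation p = 1e-05, adjusted 1.4e-05; 0.906 without 2 cultures), and 0.892 within run 3 (n = 11) and 0.853 within run 4 (n = 16). APOB with APOE had the lowest r, 0.493 (rho 0.471, permutation p = 0.0036 and 0.0062; 0.366 without 2 cultures; 0.338 and 0.464 within runs 3 and 4). Within run 3 some pairs had no positive relation, such as APOB with APOC3 (r = -0.16, n = 11), APOC1 with APOH (0.0037) and APOA1 with APOB (0.073), so their relations over all cultures did not hold within that run, and the permutations did not keep runs apart. The cultures share runs, depth and cell composition, and most are of different treatments, so the values describe shared variation only.

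The genes outside all lists whose log2 CPM over the 38 cultures was most like the members' mean, of 4217 genes compared, were GC, the vitamin D binding protein (r = 0.917), ORM2, an acute phase protein (0.882), AZGP1 (0.880) and KNG1, the kinin precursor (0.876). At cycloheximide 20 µM these 4 lay below the DMSO range, KNG1 at 12.1 to 21.4 CPM in treated cultures and 111 to 256 CPM in DMSO. For ORM2 the highest treated value, 83.0 CPM, was close to the lowest DMSO value, 84.0 CPM. These genes were picked by likeness over all 38 cultures, those of cycloheximide 20 µM included. Low values there were thus favoured by the choice, and they carry no test.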

How the data were processed

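UMIs were counted in HepaRG cells of 38 kept cultures from 8 sublibraries. The deposited table holds UMI counts per gene and cell, which the authors made with the Parse Biosciences pipeline (version not given in the sources used here): reads were aligned to GRCh38 and repeated UMIs collapsed. The stated removal of cells over 20% mitochondrial RNA was not applied in the deposited counts (4570 such cells), and was applied here together with the 500-gene minimum. No doublet caller was run. Counts were summed per culture and tested in edgeR 4.0.16 (R 4.3.3, filterByExpr, total UMIs as library size, Benjamini-Hochberg over all tested genes, threshold 0.05), checked on simulated data, with DESeq2 1.42.0 and limma 3.58.1 as alternatives. With 1 culture, a call needed a 2-fold difference with 50 CPM and 50 UMIs in the higher condition. Clusters came from scanpy 1.11.5 (2000 variable genes, Leiden resolution 1), and cells were thinned to 5000 UMIs for shares. Spans and exon lengths came from GENCODE 44. From each list of other genes the text names up to 3 that rose and 3 that fell most past the test, with 10 CPM in 1 group and 1 direction in every treated culture, and the 5 genes most like the members; some genes under this rule are not reported here. The members and lists were chosen with earlier results of these data known.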

Additional observations from a re-analysis of the deposited data

How the results depend on the processing

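Counts of members past the test moved in these settings. At rotenone 0.4 µM (1 as reported) there were 0 with TMM factors, DESeq2 size factors or DESeq2, 3 with all cells or only the DMSO cultures of the same runs (chosen after seeing the data), 4 with no filter on low counts, and 0 to 4 with 1 culture left out. At cycloheximide 20 µM (6) the range with 1 culture left out was 2 to 7, and for other lipoprotein genes (37) it was 23 to 41. With no filter there were 3 at cycloheximide 0.2 µM, 2 at etoposide 0.25 µM and 1 at troglitazone, where DESeq2 also gave 1. By increasing tunicamycin dose there were 2, 2 and 1, and each of these counts was 0 as reported. Without the filter, 32 genes were called higher and 40 lower of 38703 at cycloheximide 0.2 µM, and 31 and 11 of 40577 at etoposide 0.25 µM. They were 37 and 15 of 42035, 25 and 52 of 39282 and 76 and 48 of 38964 by tunicamycin dose, and 31 and 2 of 40455 at troglitazone.

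Run numbers went with shared deviations in some cultures and not in others. Same-run deviations from the group means correlated by 0.0093 to 0.58 for troglitazone, -0.23 to 0.50 for media and -0.25 to 0.64 elsewhere (10937 genes). In troglitazone 3 of 4 cultures correlated best with their own run. Contrasts with 2 treated cultures give 1 value for both, so they cannot settle whether runs pair. With run as a block, 1 member passed at troglitazone (APOA2, log2 2.17, edgeR adjusted p = 0.034) and 2 at etoposide 2.5 µM. There was 1 at tunicamycin 0.01 µM, 6 at rotenone 0.4 µM and 5 at cycloheximide 20 µM, where APOB had an edgeR adjusted p of 0.21. Of all genes in these fits, 25 were called higher and 0 lower of 17954 at troglitazone, and 48 and 30 of 18462 at etoposide 2.5 µM. They were 11 and 17 of 19028 at tunicamycin 0.01 µM, 3126 and 7045 of 21622 at rotenone 0.4 µM and 444 and 1274 of 17624 at cycloheximide 20 µM.

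With 1 culture, members above the level minimum and at least 2-fold apart numbered 1 (0 as reported) at tBHQ 3 µM with all cells. At 30 µM there were 3 against the same-run DMSO and 0 to 2 with a DMSO culture left out. At 300 µM there was 1 with all cells, the same-run DMSO or leaving out DMSO of run 3 or 4 (0 to 1). At brefeldin A 0.001 µM (1) there were 0 against the same-run DMSO or as a mean over cells and 0 to 2 leaving 1 out. At 0.01 µM (1) there were 0 with DESeq2 size factors, the same-run DMSO or a mean over cells, 3 with all cells and 0 to 3 leaving 1 out. At 0.1 µM (2) there were 0 against the same-run DMSO, 1 with TMM, DESeq2 size factors, no mitochondrial and ribosomal genes, all cells or a mean over cells, and 1 to 2 leaving 1 out. At rotenone 0.2 µM (3) there was 1 with those same 5 settings, and 0 to 3 leaving 1 out.

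Signs reversed for APOM at cycloheximide 20 µM as a mean over cells (0.055), and with a treated culture left out it was -0.41 to 0.24. At rotenone 0.4 µM APOC1 reversed with TMM (0.10), DESeq2 size factors (0.14), DESeq2 (0.12) and with a treated culture left out (-1.61 to 0.29), and APOE with TMM (0.069), DESeq2 size factors (0.12), DESeq2 (0.12) and with a treated culture left out (-0.91 to 0.0022). The cause was not tested. Another 231 such values for whole comparisons kept their call or stayed within 1.5 times the reported count. APOA2, APOA4, APOA5 and APOM are limited by depth.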
